A study of Mus musculus with 24 samples.

Results

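The 8 genes Cux1, Cux2, Rorb, Fezf2, Bcl11b, Tbr1, Tle4 and Lmo4, which mark neurons of particular layers in the cerebral cortex, were followed in mice that express GFP-PR28 in neurons. They were chosen by name from the 46078 genes of the count tables, each name belonged to 1 gene identifier, and all 8 were among the 16744 genes tested in the cortex. GFP-PR28 is a poly-PR dipeptide repeat (proline and arginine, the kind translated from the C9orf72 repeat expansion) fused to GFP. RNA sequencing was carried out on the cortex and lumbar spinal cord at 6 months of age and on the cerebellum at 2 and 5 months of age, with 3 libraries for each genotype, tissue and age and 24 libraries in all.

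All mice were C57BL/6. The mice labelled GFP-PR28 heterozygote carried 1 floxed GFP-PR28 allele together with Thy1-Cre, and are called heterozygous mice here. The mice labelled WT were littermates with the floxed GFP-PR28 allele and no Thy1-Cre, and are called control mice. The floxed allele was therefore present in both genotypes, and the groups differed by the Cre transgene and by the GFP-PR28 that it switches on. Thy1-Cre acts in neurons, so that the glia and vessels of each tissue piece were not the intended site of expression. The libraries were made from pieces of whole tissue, in which fewer cells of a type and less RNA per cell cannot be told apart.

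The neocortex is built of 6 layers of neurons, and a small set of transcription factors sets which kind of projection neuron a newborn cell becomes. Upper layer neurons connect the cortical areas with each other, layer 4 receives thalamic input, layer 5 holds the neurons that project to the brain stem and spinal cord, and layer 6 projects back to the thalamus. Many of these factors stay on in the adult neuron, where they serve as markers of its layer. The motor cortex was one of the regions in which the study looked for neuron loss, and the layer genes give one way to ask whether upper and deep neurons contributed differently to the RNA of the heterozygous cortex.

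Cux1 and Cux2 encode homeodomain factors of the upper layers. Cux1 lies on the minus strand of chromosome 5, from 136248135 to 136567490 in GRCm38 (the assembly that mm10 stands for). Cux2 lies on the minus strand of the same chromosome, from 121856366 to 122050102. The Cux1 locus also gives transcripts of CASP, a Golgi protein, and the antisense gene Gm16599 overlaps 394 bases of its exons, so that the Cux1 counts are not the homeodomain factor alone. Rorb encodes an orphan nuclear receptor of layer 4 neurons and lies on the minus strand of chromosome 19, from 18930605 to 19111196.

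Fezf2 encodes the zinc finger factor that specifies subcerebral projection neurons of layer 5, and lies on the minus strand of chromosome 14, from 12342094 to 12348189. Bcl11b encodes CTIP2, a zinc finger factor that acts downstream of Fezf2 in the corticospinal neurons of layer 5. Bcl11b is also strongly expressed by the medium spiny neurons of the striatum, the structure that lies just beneath the cortex. It lies on the minus strand of chromosome 12, from 107910403 to 108003602. Tbr1 encodes a T-box factor of layer 6 and lies on the plus strand of chromosome 2, from 61802930 to 61814114. Tle4 encodes a Groucho family corepressor that is kept in corticothalamic neurons of layer 6, and lies on the minus strand of chromosome 19, from 14448150 to 14598051. Lmo4 encodes a LIM-only adaptor protein that binds the LIM cofactor Ldb1 and takes part in the sorting of callosal from subcerebral neurons, and lies on the minus strand of chromosome 3, from 144188530 to 144205220. All 8 are protein-coding.

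Each cortex library held between 17084506 and 21058595 counted reads, and over all tissues the range was 12835400 to 25490124. Expression is given as CPM, the count of a gene scaled to the library size after TMM normalization (by the trimmed mean of ratios between libraries). The tissues carried the markers of their labels. The 5 caudal Hox genes of the spinal cord summed to between 212 and 259.5 CPM in the spinal cord, to at most 0.403 CPM in the cortex and to 0 in every cerebellar library. The 5 cerebellar markers summed to between 4500 and 5482 CPM in the cerebellum and to between 25.6 and 52 CPM in the cortex.

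One cortex library stood apart from the others. The log2 deviation of each gene was taken from its mean over the cortex libraries of both genotypes. In the control 1 library, the SD of this deviation over genes was 0.392, against 0.171 to 0.2 in the other 5 cortex libraries. The deviation of a gene there ran with the length of its transcript, with a Spearman correlation across genes of -0.659, whereas the correlations of the other 5 libraries lay between 0.142 and 0.457. Long transcripts were thus lower in that library than in the others, and results are given with and without it where it changed them.

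The layer genes with long transcripts were low in that library and the shortest were high. Relative to the mean of the control 2 and 3 libraries, the control 1 library differed by a log2 value of -0.61 for Cux2, -0.48 for Bcl11b, -0.35 for Cux1 and -0.32 for Rorb, whose longest annotated transcripts run from 8.11 to 12.9 kb. The differences were -0.22 for Tle4 (4.54 kb) and -0.10 for Tbr1 (3.98 kb). They were 0.13 for Fezf2 (2.43 kb) and 0.44 for Lmo4, the shortest at 1.67 kb. The Spearman correlation across the 8 genes was -0.81, as a description of 1 library.

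**Figure D1:**
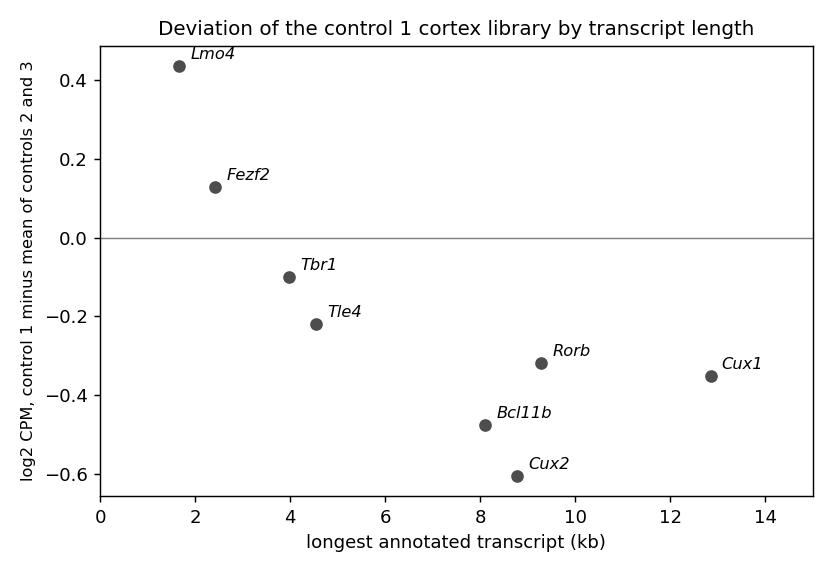
Log2 CPM of the control 1 cortex library minus the log2 of the mean CPM of the control 2 and 3 libraries (vertical axis), against the length in kb of the longest annotated transcript (horizontal axis), with 1 point per gene. The 4 genes with transcripts above 8 kb lie between -0.61 and -0.32, and Lmo4, with the shortest transcript, lies at 0.44.

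The first question was whether the layer genes differed between heterozygous and control cortex. None of the 8 was called with edgeR's quasi-likelihood test (a call needed an adjusted p under 0.05 together with a log2 fold change larger than 0.2 in either direction). Over all genes 6 were called, 0.0358% of those tested, and 1929 had an unadjusted p under 0.05. Among the 8 genes 1 had an unadjusted p under 0.05, which was Bcl11b. The log2 fold changes of the 8 genes were positive for 5 and negative for 3, with a median of 0.07, where the median over all tested genes was 0.004. DESeq2 called 144 genes (0.86%), and Bcl11b was the only one of the 8 among them.

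Of the upper layer genes, Cux2 was at 118.9, 188.8 and 172.9 CPM in control mice and at 150.8, 177.8 and 148.9 CPM in heterozygous mice. The groups overlapped throughout, and the control 1 library was the lowest of the 6. The log2 fold change was 0.002 ± 0.161 (SE, 95% interval -0.36 to 0.36, adjusted p = 0.997), and it became -0.16 without the control 1 library. As a ratio the interval ran from 0.78 to 1.29.

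Cux1 was at 112.1, 155.4 and 130.5 CPM in control mice and at 127.1, 131.8 and 125.9 CPM in heterozygous mice. The 3 heterozygous libraries lay close together and inside the range of the controls. The log2 fold change was -0.04 ± 0.12 (95% interval -0.31 to 0.24, adjusted p = 0.917). It changed sign, to 0.08, without the control 2 library.

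Rorb was at 71.4, 102.4 and 75.8 CPM in control mice and at 68.9, 84 and 75.9 CPM in heterozygous mice. The control 2 library was the highest of the 6, as it was for Cux1 and Cux2. The log2 fold change of Rorb was -0.11 ± 0.15 (95% interval -0.44 to 0.21, adjusted p = 0.763), and without the control 2 library it was 0.05. For these 3 genes the spread among all 3 control libraries was larger than the difference between the genotypes. The coefficient of variation was 16.4% for Cux1, 22.9% for Cux2 and 20.2% for Rorb in control mice, against 2.4%, 10.2% and 9.91% in heterozygous mice. Without the control 1 library the control values were 12.3%, 6.23% and 21.1%, so that Cux2 then varied less among control than among heterozygous mice.

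Fezf2 was at 41, 34.9 and 40.1 CPM in control mice and at 43.1, 39.9 and 44.2 CPM in heterozygous mice. The groups overlapped, and 2 of the heterozygous libraries were above every control. Its log2 fold change was 0.14 ± 0.12 (95% interval -0.12 to 0.40, adjusted p = 0.636).

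Bcl11b differed most of the 8 genes. It was at 44.2, 49.8 and 73.2 CPM in control mice and at 107.2, 91.2 and 106.1 CPM in heterozygous mice, or 55.7 ± 15.4 and 101.5 ± 8.96 CPM (mean ± SD, n = 3). Every heterozygous library was above every control library, and the control 3 library was the nearest of the controls to the heterozygous ones. The log2 fold change was 0.87 ± 0.18 (95% interval 0.48 to 1.27), a ratio of 1.83, with an adjusted p of 0.197 that missed the threshold. By unadjusted p, Bcl11b ranked at place 52 of the 16744 genes.

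Whether Bcl11b was called depended on the processing more than its size did. Its log2 fold change stayed between 0.75 and 1.11 under all alternatives, each of them positive. DESeq2 gave an adjusted p of 0.0024, the edgeR fit without a filter on low counts 0.00401, and the edgeR fit of all 12 libraries of both tissues 0.0337. Leaving out the control 3 library gave 1.11 with an adjusted p of 0.0129, and leaving out the control 1 library gave 0.75 with an adjusted p of 0.146. Without the control 2 library the adjusted p was 0.276. Without the heterozygous 1, 2 or 3 library it rose to 0.565, 0.566 and 0.812, further from the threshold than in the main fit. When the fit was corrected for transcript length and GC content, the value was 0.76 and the adjusted p 0.0696.

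Tbr1 was at 171.7, 192.9 and 175.2 CPM in control mice and at 186.8, 210.4 and 210.3 CPM in heterozygous mice. The lowest heterozygous library lay inside the range of the controls. This gave a log2 fold change of 0.18 ± 0.10 (95% interval -0.05 to 0.41, adjusted p = 0.511).

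Tle4 was at 39.1, 42.6 and 48.4 CPM in control mice and at 60.4, 46.4 and 51.1 CPM in heterozygous mice. Here too the groups overlapped by 1 library on each side. For Tle4 the log2 fold change was 0.29 ± 0.13 (95% interval -0.007 to 0.58, adjusted p = 0.439).

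Lmo4 was at 303.5, 230 and 218.9 CPM in control mice and at 189.8, 208.1 and 210 CPM in heterozygous mice. Every heterozygous library was below every control, by a small step between 218.9 and 210 CPM. For Lmo4 the log2 fold change was -0.30 ± 0.14 (95% interval -0.62 to 0.02, adjusted p = 0.451). The control 1 library, in which short transcripts were higher than in the others, gave the highest value, and without it the log2 fold change was -0.12.

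Bcl11b and Lmo4 were thus the 2 of the 8 genes whose groups did not overlap, in opposite directions. Of all genes tested in the cortex, 3453 (20.6%) had groups that did not overlap, so that the count of 2 of 8 is near the background.

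**Figure D2:**
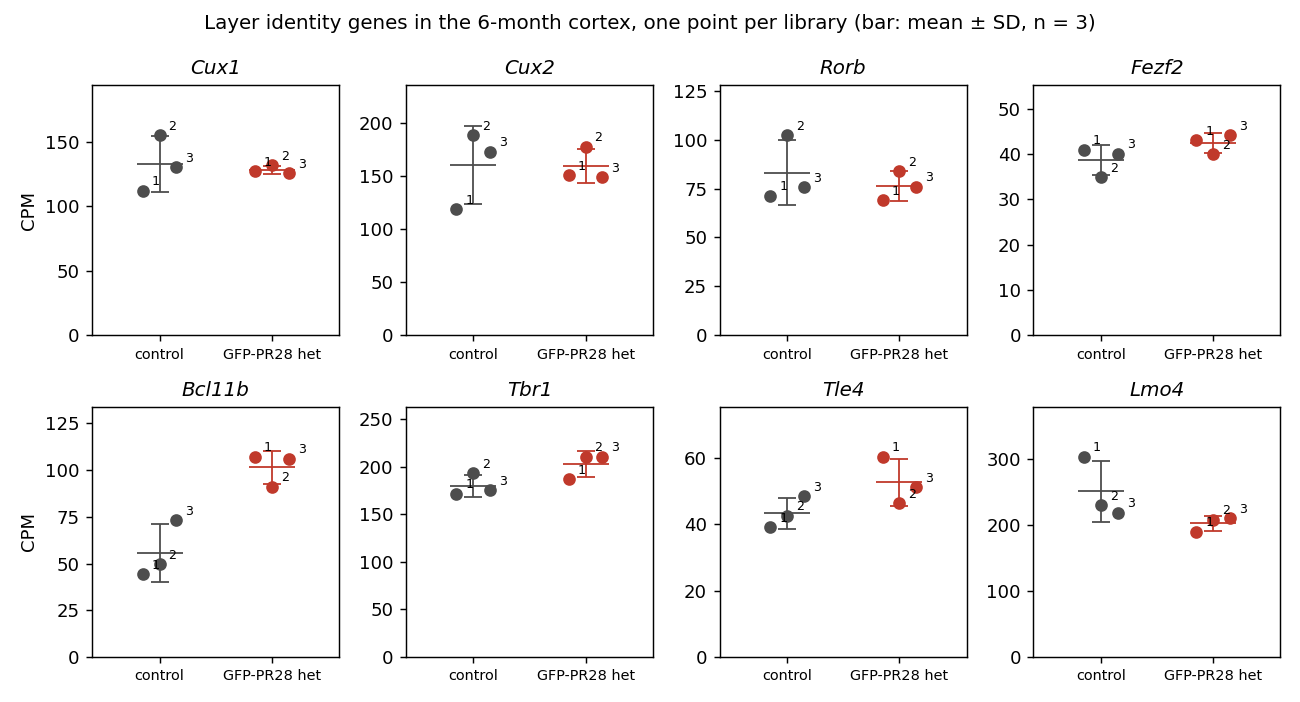
CPM of the 8 genes in the 3 control and 3 GFP-PR28 heterozygous cortex libraries at 6 months of age (vertical axes, each starting at 0), with 1 numbered point per library and bars for the mean ± SD. Bcl11b is at 44.2 to 73.2 CPM in control mice and at 91.2 to 107.2 CPM in heterozygous mice without overlap, whereas the points of Cux1, Cux2, Rorb, Fezf2, Tbr1 and Tle4 overlap between the genotypes.

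The ratio of an upper to a deep layer gene within a library does not depend on the library size. The ratio of Cux2 to Tbr1 in CPM was 0.692, 0.979 and 0.987 in control mice and 0.807, 0.845 and 0.708 in heterozygous mice. The ratio of Cux2 to Fezf2 was 2.9, 5.41 and 4.31 in control mice and 3.5, 4.45 and 3.37 in heterozygous mice. Both ratios overlapped between the genotypes, with the control 1 library lowest in each. For Cux2 to Tbr1 the overlap rested on that library alone, as every heterozygous library was below the control 2 and 3 libraries. The ratio of Cux2 to Fezf2 still overlapped without it. The ratio of Bcl11b to Fezf2, which mark the same class of layer 5 neurons, was 1.08, 1.43 and 1.83 in control mice and 2.49, 2.28 and 2.4 in heterozygous mice. The 2 genes therefore did not keep 1 proportion, and the groups did not overlap.

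Marker lists of other cell types were read beside Bcl11b. The 18 genes of the striatal neuron list summed to 753.1, 914.6 and 1509 CPM in control cortex and to 2906, 1872 and 1928 CPM in heterozygous cortex. The groups did not overlap, and the 6 libraries stood in the same order by this sum as by Bcl11b, in both genotypes. The log2 fold changes of the 18 striatal genes were all positive (median 1.52). Of the 18, 16 had groups that did not overlap, against 20.6% of all tested genes. None of the 18 was called with edgeR, where the smallest adjusted p was 0.125, and 16 had an unadjusted p under 0.05, where 11.5% of all tested genes did. DESeq2, which called Bcl11b, also called 6 of the 18, among them Tac1, the precursor of substance P (adjusted p = 7.44e-05), and Penk, the precursor of enkephalin (adjusted p = 0.00957). The list holds genes that were known to be among the changed genes of these samples, so that its direction is not independent evidence.

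Drd1, the dopamine receptor of the direct pathway neurons, was at 7.11, 6.79 and 19.1 CPM in control mice and at 55.5, 26.9 and 36.7 CPM in heterozygous mice. The 2 genes of the list with the largest fold changes were Sh3rf2 (log2 fold change 2.51 ± 0.91, adjusted p = 0.4) and Six3, a homeodomain factor of indirect pathway neurons (2.19 ± 0.69, adjusted p = 0.357). No gene of the list was at 0 in any cortex library, and the lowest count was 3, for Sh3rf2 in the control 1 library. The ratio of Bcl11b to Drd1 was not constant either, at 6.22, 7.33 and 3.83 in control mice and 1.93, 3.39 and 2.89 in heterozygous mice.

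The 3 cholinergic genes had higher sums in the heterozygous libraries as well. They summed to 1.73, 2.64 and 4.65 CPM in control cortex and to 10.7, 6.54 and 11.7 CPM in heterozygous cortex. Chat, the enzyme of acetylcholine synthesis, had a log2 fold change of 2.07 ± 0.40 (adjusted p = 0.19), and Slc5a7, the choline transporter, 1.56 ± 0.36 (adjusted p = 0.247). None of the 3 was called with edgeR, and DESeq2 called Chat (adjusted p = 0.00141) and Slc5a7 (adjusted p = 0.0168). The part of striatal and cholinergic neurons in the Bcl11b result was not tested.

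Without the control 1 library all 18 striatal genes were still positive, with a median log2 fold change of 1.34. The number at an unadjusted p under 0.05 dropped from 16 to 5, where 2123 of all 17117 genes tested were under it. None of the 18 was called, against 134 of all genes. Without the control 3 library the median was 2.12 and edgeR called 12 of the 18, against 39 of all 17088 genes tested. In the spinal cord the 15 striatal genes tested were positive for 8 and negative for 7. The sum of all 18 was 991.1 to 1176 CPM there and 619.2 to 746.2 CPM in the cerebellum. The sum is thus not particular to striatal neurons, and the spinal cord range lay above the control 1 and 2 cortex libraries.

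**Figure D3:**
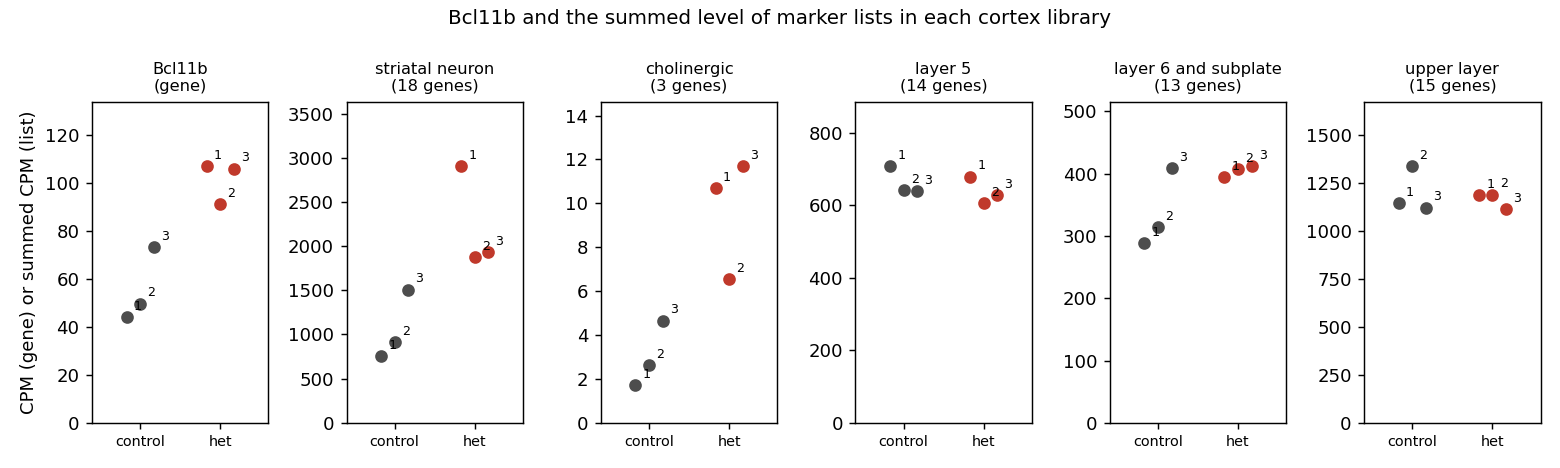
CPM of Bcl11b (first panel) and the summed CPM of 5 marker lists (other panels) in each cortex library, with control mice on the left and heterozygous mice on the right of each panel, numbered points for libraries and axes that start at 0. Bcl11b and the striatal neuron list put the 6 libraries in the same order, with sums of 753.1 to 1509 CPM in control and 1872 to 2906 CPM in heterozygous mice, whereas the layer 5 and upper layer sums overlap between the genotypes.

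Further genes of each layer showed whether the 8 were typical of it. Of the 14 other layer 5 genes, 5 were positive and 9 negative in log2 fold change (median -0.07), and none was called with edgeR or DESeq2. Their sum was 708.8, 642.4 and 640.1 CPM in control and 679.4, 606.1 and 627.5 CPM in heterozygous mice. The largest differences were those of Rbp4, a marker of layer 5 neurons that encodes retinol binding protein (0.60 ± 0.23, adjusted p = 0.4), and Pou3f1, a POU domain factor of subcerebral neurons (0.51 ± 0.15, adjusted p = 0.339). Bcl11b thus had a larger value than any of the 14. Without the control 1 library the median changed sign, to 0.06, with 9 of 14 positive, and Rbp4 was called (0.87, adjusted p = 0.0272). The summed level of this list is not particular to the cortex. It was 1588 to 2014 CPM in the spinal cord and 916.2 to 1039 CPM in the cerebellum.

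Of the 13 genes of layer 6 and the subplate, 11 were positive and 2 negative, with a median of 0.24, and none was called with edgeR. Their sum was 288.3, 314.1 and 408.7 CPM in control mice and 394, 407.6 and 412.2 CPM in heterozygous mice, so that the control 3 library lay among the heterozygous ones. The largest differences were those of Syt6, a synaptotagmin of layer 6 neurons (0.84 ± 0.23, adjusted p = 0.316, and 0.0459 with DESeq2), and Nr4a2, a nuclear receptor of the subplate and claustrum (0.58 ± 0.21, adjusted p = 0.389). Of the 13 genes, Foxp2 is also a gene of striatal medium spiny neurons, and the control 3 library was the highest control for 12 of the 13. With edgeR 4 of the 13 had an unadjusted p under 0.05, where 11.5% of all tested genes did. Without the control 1 library 9 of the 13 were positive, with a median of 0.17. Without the control 3 library 12 were positive, with a median of 0.44, and again none was called.

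Of the 15 other upper layer genes, 8 were positive and 7 negative, with a median of 0.05, and none was called with edgeR. Inhba, an activin subunit (1.05 ± 0.40, adjusted p = 0.4), and Mdga1, a cell surface glycoprotein of upper layer neurons (1.02 ± 0.18, adjusted p = 0.146), had the largest values. Mdga1 was called by DESeq2 (adjusted p = 0.000347) and by edgeR without the control 1 library (0.91, adjusted p = 0.0124). With edgeR 5 of the 15 had an unadjusted p under 0.05, 3 higher and 2 lower, where 11.5% of all tested genes did. Groups without overlap were likewise found for 3 higher and 2 lower genes, against 20.6% of all tested genes. The list thus had no common direction. Inhba was at low levels, with 11 to 74 counts a library.

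The general excitatory neuron list was level as well. Its 7 genes were positive for 3 and negative for 4, with a median of -0.02, and their sum was 6979, 8289 and 7339 CPM in control and 7077, 8077 and 6536 CPM in heterozygous mice. The largest values were those of Bhlhe22 (0.41 ± 0.17, adjusted p = 0.423) and Neurod6 (0.40 ± 0.12, adjusted p = 0.346), both basic helix-loop-helix factors of cortical projection neurons. Without the control 1 library the median of the list was 0.13, with 5 of 7 positive, and Neurod6 was called (0.51, adjusted p = 0.0223).

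Among the relatives and cofactors of the 8 genes (Bcl11a, Rora, the other Groucho genes, the other Lmo genes, Ldb1 and other T-box genes), 11 of 14 were tested, 5 were positive, 6 negative and none was called with edgeR or DESeq2. The median was -0.003. Lmo2 (0.37 ± 0.16, adjusted p = 0.432) and Lmo1 (-0.29 ± 0.34, adjusted p = 0.743) had the largest values. The other 3, Fezf1, Eomes and Tbx21, were under the filter, with at most 6 counts in a library. Bcl11a, the paralog of Bcl11b, was at 132.5, 121.4 and 123.2 CPM in control and 135.5, 143.8 and 154.5 CPM in heterozygous mice, with a log2 fold change of 0.21 ± 0.11 (adjusted p = 0.468), and was named here after its values were seen.

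Other cell types of the tissue piece were checked in the same way. No gene of these lists was called with edgeR, and DESeq2 called 1, the astrocyte gene Aldh1l1 (adjusted p = 0.0334). Aldh1l1 was also called by edgeR without the control 1 library (-0.39, adjusted p = 0.0379). Astrocyte genes were negative for 6 of 6, with a median of -0.16 and the largest values for Aldh1l1 (-0.42) and Slc1a2 (-0.20), and microglial genes were negative for 6 of 6, with a median of -0.30 and the largest values for Tmem119 (-0.43) and Trem2 (-0.39). Interneuron genes were positive for 2 and negative for 6 (median -0.13), with the largest values for Pvalb (-0.54) and Vip (-0.29). Oligodendrocyte genes were positive for 1 and negative for 5 (median -0.12), with the largest values for Mbp (-0.18) and Cnp (-0.14). The part of these cell types in the values of the layer genes was not tested.

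Markers of the hippocampus and thalamus were level between the genotypes, unlike the striatal genes given above. Of 4 hippocampal genes tested 2 were positive (median 0.06), with the largest values for Fibcd1 (0.27) and Prox1 (0.14). Of 4 thalamic genes 2 were positive (median 0.003), with the largest values for Slc17a6 (0.14) and Tcf7l2 (-0.13). Of 4 cerebellar genes tested 3 were positive (median 0.64), with Pcp2 at 1.57 and Cbln3 at 1.20. Both were highest in the heterozygous 2 library, where Cbln3 was at 7.86 CPM against 1.09 to 1.5 CPM in the other 5. None of the 5 caudal Hox genes passed the filter in the cortex.

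The layer genes were also compared among themselves over the 6 cortex libraries. Pearson correlations of log2 CPM are descriptions of 6 libraries in 2 genotypes, and all points share the library-wide effect of transcript length. Cux1 and Cux2 had a correlation of 0.879, Cux1 and Rorb 0.865, and Bcl11b and Tle4 0.888. The correlation of Bcl11b with Fezf2 was lower, at 0.634, and that of Lmo4 with Bcl11b was -0.815.

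The genes most like each layer gene by this measure were found among the 10467 other genes with a mean of at least 10 CPM in the cortex. For Bcl11b they were Gfm1 (0.995), Srgap1 (0.985) and Cnr1 (0.984). For Tle4 they were Foxo1 (0.996), Unc13c (0.996) and Ccdc137 (0.989), and for Tbr1 Afg3l2 (0.985), Pisd-ps1 (0.981) and Aaas (0.978). For Fezf2 they were Col11a2 (0.989), Hnrnph3 (0.97) and Gtpbp4 (0.966).

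Cux1 was most like Clec16a (0.989), Atxn7l1 (0.986) and Cpeb1 (0.984), Cux2 most like Tnpo2 (0.99), Abr (0.988) and Itih5 (0.983), and Rorb most like Cables2 (0.981), Ccdc177 (0.974) and Maf (0.972). Lmo4 was most like Fabp3 (0.998), Commd8 (0.997) and Bax (0.997). Lmo4 had 587 genes (5.61%) at a correlation of 0.95 or more, against 5 to 55 genes for the other 7. No layer gene was among the 3 genes most like another.

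The next question was how far the 8 genes are particular to the cortex. In control mice all 8 were called higher in the cortex than in the spinal cord. That fit treated the libraries of both tissues as independent, although the labels do not say whether they came from the same mice. Of all 17416 genes tested in that comparison 3585 (20.6%) were called higher in the cortex. All 8 were called under every alternative that was run, and in each the 3 control cortex libraries lay above the 3 control spinal cord libraries. Such groups without overlap were common between these tissues, with 9545 of all genes tested (54.8%), of which 4836 were higher in the cortex. The genes fell into a cortex-restricted pair, 4 genes that the spinal cord held at a lower level, and a pair that differed little between the tissues.

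The restricted pair was Tbr1 and Fezf2. Tbr1 had 42, 10 and 9 counts in control and 2, 41 and 8 counts in heterozygous spinal cord, against 2971 to 3723 counts in a cortex library, and the fitted ratio of control cortex to control spinal cord was 190 (95% interval 101.4 to 356, adjusted p = 1.88e-06). Fezf2 had 23, 6 and 6 counts in control and 4, 7 and 1 counts in heterozygous spinal cord, against 673 to 793 in a cortex library, and the fitted ratio was 70.9 (40.4 to 124.6, adjusted p = 3.01e-06). The control 1 spinal cord library was the highest for both genes, and without it the log2 ratio moved from 7.57 to 8.66 for Tbr1 and from 6.15 to 7.10 for Fezf2. On leaving out any other library the log2 ratios stayed between 7.19 and 7.59 for Tbr1 and between 5.80 and 6.23 for Fezf2. The control 1 spinal cord library also held Slc17a7, the vesicular glutamate transporter of cortical excitatory neurons, at 32.9 CPM. The level was 4.59 and 6.8 CPM in the other control mice and 2.37, 15.9 and 13.2 CPM in heterozygous mice. The rest of the general excitatory neuron list was mixed. Neurod6 (4.88 CPM) and Nrgn (40.7 CPM) were also highest in the control 1 library. Neurod2, Emx1 and Camk2a were higher in another library, and Bhlhe22 was lowest in control 1, at 12.6 CPM. The part of cortical RNA in these counts was not tested.

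The 4 genes at an intermediate level in the spinal cord were Lmo4, Bcl11b, Rorb and Cux2. The ratio of control cortex to control spinal cord was 5.72 for Lmo4 (95% interval 4.54 to 7.21), 4.51 for Bcl11b (3.36 to 6.06), 3.32 for Rorb (2.66 to 4.15) and 3.2 for Cux2 (2.47 to 4.14). The adjusted p-values of the 4 ran from 3.07e-06 to 5.7e-05. The last pair, Cux1 and Tle4, had ratios of 1.64 (1.35 to 1.98, adjusted p = 0.00144) and 1.55 (1.3 to 1.86, adjusted p = 0.00211).

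The cerebellum ordered the genes otherwise. Its libraries came in a separate count table and at other ages, so that levels are set side by side without a test. Cux1 was at 129.4 to 154.6 CPM over the 12 cerebellar libraries, as high as in the cortex, where the range was 112.1 to 155.4 CPM, and well above the 67.3 to 84.7 CPM of the spinal cord. Cux2 was at 47.7 to 61.3 CPM in the cerebellum, close to the 38.1 to 54.2 CPM of the spinal cord and below the 118.9 to 188.8 CPM of the cortex. The 2 upper layer genes therefore had different patterns over the tissues.

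Rorb stood at 68.9 to 102.4 CPM in the cortex, 24 to 26.8 CPM in the spinal cord and 8.77 to 12.8 CPM in the cerebellum. Lmo4 stood at 189.8 to 303.5 CPM, 41.8 to 45.9 CPM and 19.3 to 29.4 CPM in the same order. Bcl11b stood at 44.2 to 107.2 CPM, 10.5 to 14.3 CPM and 0.835 to 2.11 CPM. These 3 genes had the same order of tissues without overlap between any of the 3.

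Tle4 was at 39.1 to 60.4 CPM in the cortex, 25.3 to 29.3 CPM in the spinal cord and 28 to 37.1 CPM in the cerebellum, so that the latter tissues overlapped. Tbr1 was at 0.113 to 1.95 CPM in the spinal cord and 0.582 to 2.38 CPM in the cerebellum, and these ranges overlapped too. Fezf2 had between 0 and 7 counts in each cerebellar library, and no fold is given against that level. Tbr1 was thus detected at low counts (8 to 41) in every cerebellar library, while Fezf2 was at 0 in 3 of the 12.

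**Figure D4:**
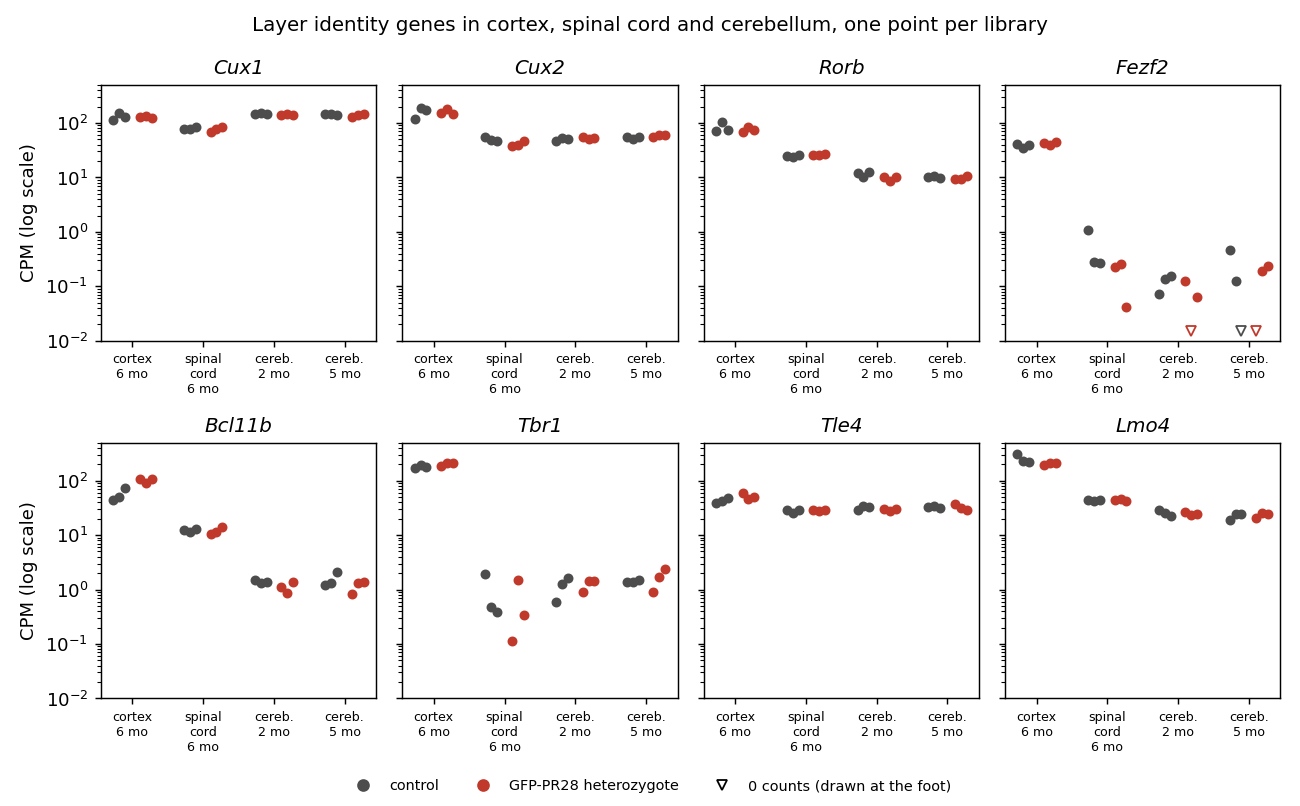
CPM of the 8 genes on a log scale (vertical axes) in the cortex and spinal cord at 6 months and the cerebellum at 2 and 5 months, with 1 point per library, control mice in grey and GFP-PR28 heterozygous mice in red, and open triangles at the foot for libraries with 0 counts. Tbr1 and Fezf2 drop from the cortex to 2.38 CPM or less in every other library, whereas Cux1 is at 129.4 to 154.6 CPM in the cerebellum.

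Within the order of the 8 groups of libraries for a gene, most neighbouring groups overlapped. For Cux1 the only step without overlap lay between the heterozygous cortex (128.3 ± 3.08 CPM) and the control spinal cord (80.4 ± 2.42 CPM). For Cux2, Fezf2, Tbr1 and Tle4 the only such step lay between the cortex groups and the rest. Rorb had a second step between the spinal cord and the cerebellum. For Bcl11b and Lmo4 the 2 cortex groups also separated from each other, as given above.

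Per kb of exon sequence, levels can be set between genes. In control cortex Lmo4 was highest at 71 ± 13 CPM per kb, followed by Tbr1 at 32.8 ± 2.07, Cux2 at 15.9 ± 3.64 and Fezf2 at 12.7 ± 1.08. Tle4 at 7.6 ± 0.828, Rorb at 7.51 ± 1.52, Bcl11b at 6.87 ± 1.9 and Cux1 at 6.63 ± 1.09 CPM per kb lay close together, with SD ranges that overlapped. In heterozygous cortex Bcl11b was at 12.5 ± 1.1 CPM per kb, beside Fezf2 at 13.9 ± 0.73. These levels divide by all annotated exons of a gene, 20 kb for Cux1, so that a gene with many alternative exons is understated.

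The genotype comparison in the spinal cord asked whether the values of the cortex recurred there. Of the 8 genes 7 passed the filter (Fezf2 did not) and none was called, where 19 of all 17522 genes were called (0.108%). No gene of the 7 had groups that did not overlap, against 11.5% of all genes. Bcl11b was at 12.2, 11.5 and 13 CPM in control and at 10.5, 11.6 and 14.3 CPM in heterozygous spinal cord, with a log2 fold change of -0.006 ± 0.133 (95% interval -0.29 to 0.28, adjusted p = 0.996). The interval does not reach the value of the cortex.

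Cux2 was at 54.2, 48.8 and 45.7 CPM in control and at 38.1, 39.9 and 46.5 CPM in heterozygous spinal cord. It had the only unadjusted p under 0.05 of the 7. Its log2 fold change was -0.25 ± 0.09 (95% interval -0.46 to -0.05), and its adjusted p was 0.691. The heterozygous 1 library, the lowest for Cux2, had a Spearman correlation of -0.419 between deviation and transcript length. Without that library the log2 fold change of Cux2 was -0.20. Cux1 (-0.06), Rorb (0.08), Tle4 (0.04) and Lmo4 (0.01) had log2 fold changes under 0.1 in size with standard errors of 0.075 to 0.086. Tbr1 had a log2 fold change of -0.42 ± 1.01 on the few counts given above, and it was 0.67 without the control 1 library.

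Whether the genotype effect differed between cortex and spinal cord was tested as an interaction over the 12 libraries of both tissues. Here too the libraries of both tissues were treated as independent, although they may come from the same mice. Of 18241 genes 3 were called (0.0164%), and none of the 8 was. The difference for Bcl11b was 0.87 ± 0.24 on the log2 scale (95% interval 0.37 to 1.38, adjusted p = 0.403), and the adjusted p was 0.0219 without the control 3 cortex library. For Fezf2 it was 1.72 ± 0.63 (adjusted p = 0.696), on the 1 to 23 counts of the spinal cord, and it was 0.78 without the control 1 spinal cord library. The other 6 had adjusted p-values of 0.822 to 0.988. A cortex effect of Bcl11b that differs from that of the spinal cord was therefore not called.

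In the cerebellum at 5 months 839 of 16481 genes were called (5.09%) and none of the 7 layer genes tested was. No gene of the 7 had groups that did not overlap, against 25.6% of all genes. Cux2 was at 55, 51.3 and 55.9 CPM in control and at 54.2, 61.3 and 59.1 CPM in heterozygous mice, with a log2 fold change of 0.13 ± 0.06 (95% interval 0.003 to 0.26, adjusted p = 0.234). Cux1 was at 147.4, 144.4 and 139.3 CPM in control and at 129.4, 140.5 and 146 CPM in heterozygous mice, with a log2 fold change of -0.03 ± 0.05 (95% interval -0.13 to 0.08, adjusted p = 0.83). The interval of Cux1 was the narrowest of the 7.

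The other 5 genes of the 5-month cerebellum had adjusted p-values of 0.591 to 0.944. Bcl11b had 18, 21 and 34 counts in control and 12, 21 and 24 counts in heterozygous mice, with a log2 fold change of -0.35 ± 0.31. Tbr1 had 20, 22 and 24 counts in control and 13, 27 and 41 counts in heterozygous mice, with a log2 fold change of 0.29 ± 0.32. The 95% intervals at these counts were wide, from -1.01 to 0.31 for Bcl11b and from -0.37 to 0.95 for Tbr1.

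In the cerebellum at 2 months edgeR called 0 of 16208 genes (0%), with 836 at an unadjusted p under 0.05 and 44 called by DESeq2. None of the 7 layer genes tested was called by either tool, and none had groups that did not overlap, against 14.5% of all genes. The log2 fold changes were -0.06 ± 0.07 for Cux1, 0.09 ± 0.07 for Cux2, -0.23 ± 0.13 for Rorb, -0.11 ± 0.09 for Tle4 and -0.04 ± 0.12 for Lmo4. Bcl11b was at -0.33 ± 0.27 and Tbr1 at 0.12 ± 0.40, on 8 to 22 counts a library. The control 1 library of this age stood apart in GC content, with a Spearman correlation across genes of 0.469 between its deviation and the GC content of a gene, and without it the log2 fold change of Tbr1 was -0.20 and that of Lmo4 0.06.

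**Figure D5:**
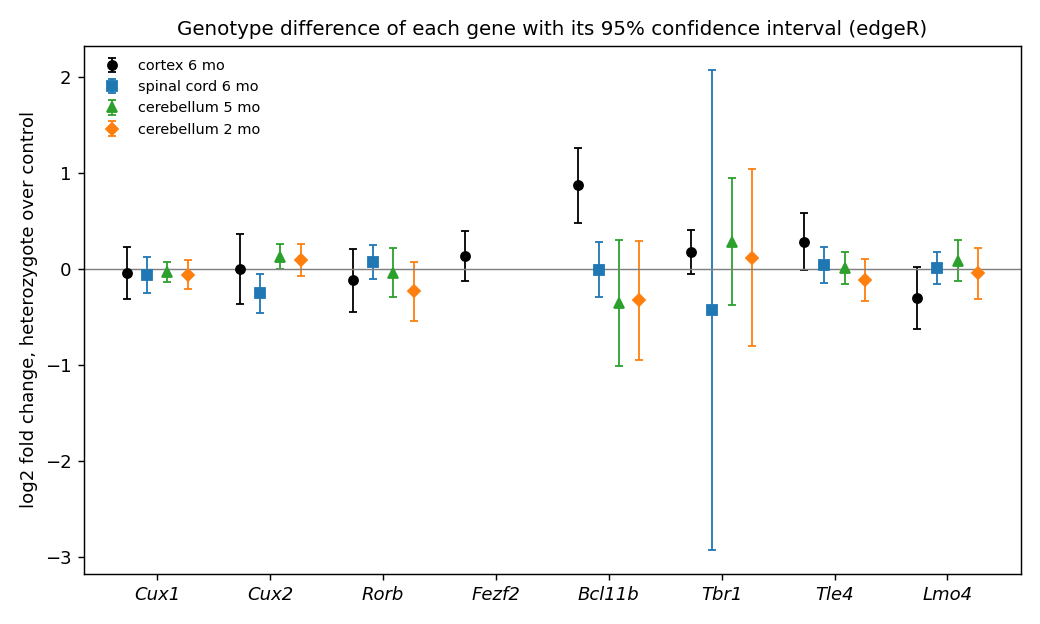
Log2 fold change of heterozygous over control mice (vertical axis) with its 95% confidence interval for each of the 8 genes in the 4 tissue and age comparisons, from edgeR. The interval of Bcl11b in the cortex runs from 0.48 to 1.27, those of Cux2 in the spinal cord and in the 5-month cerebellum also leave out 0, none of the values was called, and Fezf2 was tested in the cortex only.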

How the data were processed

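Total RNA was isolated by the authors with TRIzol, and NEBNext Ultra libraries were read from both ends on an Illumina HiSeq. Per the labels and the study's methods, reads were trimmed with Trimmomatic 0.30, aligned to mm10 with HISAT2 2.0.1 and counted per gene with HTSeq 0.6.1. The authors deposited raw counts for each gene and library, without normalization or pooling, in 2 tables of 12 libraries. The strand setting, the counting mode and the annotation release are not given in the sources used here. The labels number the replicates without naming the mouse of each library, so that p-values measure the spread between these libraries.

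A separate fit was made for each comparison with edgeR 4.0.16 (R 4.3.3) with TMM normalization, filterByExpr (minimum count 10, minimum total count 15) and the robust quasi-likelihood test, with Benjamini-Hochberg adjustment over all genes tested. Standard errors of log2 fold changes and 95% intervals come from this fit. A call needed an adjusted p under 0.05 together with a log2 fold change larger than 0.2 in either direction, and for interactions the adjusted p alone. CPM used TMM factors over all 24 libraries, except in the correlations between genes over the cortex libraries. Gene positions and lengths came from GENCODE M21 on GRCm38. Likeness was the Pearson correlation of log2(CPM + 0.5) in the cortex, with TMM factors from the cortex libraries alone.

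The alternatives were DESeq2 1.42.0, its size factors in edgeR, no filter on low counts, non-robust dispersions, a length and GC offset (loess span 0.4), no fold change threshold, all 12 libraries of a table in 1 fit, a replicate block, and leaving out each library. The fits were tested on simulated data. Figures were drawn with matplotlib 3.10.9.

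The 8 genes, the 15 further gene lists and the tests were chosen with earlier results of these data known. Named were the 8 genes, in each list the called genes or else the 2 genes tested with the largest log2 fold change in the cortex, and for each of the 8 the 3 genes most like it. Drd1, Penk, Tac1, Slc17a7, Foxp2 and Bcl11a were named after their values were seen. The result for 1 gene of a list is left out here.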

Additional observations from a re-analysis of the deposited data

How the results depend on the processing

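Of the 8 genes, all were called higher in control cortex than in control spinal cord under every alternative run, and none was called between the genotypes in the spinal cord or the cerebellum under any. In the cortex 1 gene, Bcl11b, was called with DESeq2, without the filter on low counts and in the fit of all 12 libraries, and leaving out 1 library gave 0 to 1 of the 8 called (1 without control 3). In the interaction the leave-one-out range was 0 to 1 as well, again Bcl11b without control 3 of the cortex. The cause of these differences was not tested. Without control 1 of the spinal cord the interaction of Fezf2 was 0.78, against 1.72 with it.

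Counts over all genes were less stable. In the cortex DESeq2 called 144 genes, the fit without a filter 108, the length and GC offset 13 and the fit of all 12 libraries 104, and leaving out 1 library gave 0 to 134 (134 without control 1, 39 without control 3, and 0 without heterozygous 2 or 3). In the spinal cord the counts were 73 with DESeq2, 244 without a filter, 0 with non-robust dispersions, 44 with the replicate block and 0 in the fit of all 12 libraries, and leaving out 1 library gave 0 to 643 (643 without heterozygous 1). In the 5-month cerebellum the fit of all 12 libraries called 225, and the leave-one-out range was 433 to 1022. In the 2-month cerebellum DESeq2 called 44, the fit without a filter 26, the length and GC offset 11 and the fit of all 12 libraries 47, with 0 to 362 on leaving out 1 library (362 without control 1). In the interaction the counts were 51 with DESeq2, 20 without a filter, 8 with the length and GC offset and 0 with the replicate block, with 0 to 31 on leaving out 1 library.

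Changes of sign were found only for values that were not called. In the cortex the log2 fold change of Cux2 was -0.0029 with DESeq2, -0.0030 with its size factors, -0.013 without a filter, -0.086 with the length and GC offset and -0.013 in the fit of all 12 libraries. With the length and GC offset Cux1 was at 0.070 and Rorb at 0.031 in the 5-month cerebellum, and in the interaction Cux1 was at -0.00028 without a filter and -0.13 with that offset. Leaving out 1 library moved the log2 fold change across 0 for Cux1 (-0.13 to 0.079), Cux2 (-0.16 to 0.13) and Rorb (-0.20 to 0.049) in the cortex. In the spinal cord it did so for Cux1 (-0.13 to 0.021), Bcl11b (-0.14 to 0.079), Tbr1 (-1.95 to 0.67), Tle4 (-0.019 to 0.083) and Lmo4 (-0.020 to 0.051). In the 5-month cerebellum the ranges were -0.073 to 0.025 for Cux1, -0.11 to 0.0054 for Rorb, -0.075 to 0.57 for Tbr1, -0.080 to 0.080 for Tle4 and -0.015 to 0.17 for Lmo4. In the 2-month cerebellum they were -0.20 to 0.42 for Tbr1 and -0.13 to 0.061 for Lmo4, and in the interaction -0.10 to 0.13 for Cux1 and -0.55 to 2.11 for Tbr1.

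The replicate block kept Bcl11b in the cortex uncalled, with a log2 fold change of 0.90 and an adjusted p of 0.138, and called 8 genes over all. Between the genotypes, deviations of libraries with the same number correlated at -0.20, -0.094 and 0.051 in the cortex. In the spinal cord the values were -0.17, 0.10 and -0.10. Between cortex and spinal cord, equal numbers correlated at -0.21, -0.083 and -0.074 in control mice and at 0.074, 0.050 and 0.025 in heterozygous mice. Library-wide effects such as that of transcript length enter these values, so that they cannot show whether equal numbers pair the mice. The labels state no pairing, and the main fits used none.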
